A study of Zea mays with 24 samples.

Results

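The glutathione S-transferase (GST) family of maize was followed across 2 inbred lines and 4 watering states through 35 probe sets that measure 31 genes. A probe set was taken as a member when its gene carried a name of the form gst followed by a number among the symbols and synonyms of a RefSeq gene table, to which the array annotation leads by gene identifier. All 35 probe sets were found through synonyms in that table, and the annotation column itself gave none (0) of the names. The array holds 17621 probe sets for genes, of which 1452 carry 1 gene name. The gene gst13 has 2 probe sets, whose names end in S1_at and S1_x_at, and gst31 has 4, ending in S1_a_at, S1_x_at, A1_a_at and A1_x_at, so these genes weigh more in any count of probe sets. Of the members, 32 probe sets, which stand for 28 genes, passed the brightness filter and were tested, and those of gst8, gst32 and gst35 were not.

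Seedlings of the lines Han21 and Ye478 were sampled at the stage of 3 leaves. Each line gave a control group, a moderate drought group, a severe drought group and a re-watered group, so that there are 8 groups of 3 arrays and 24 arrays in all. The control of a line is that line's own unstressed group, and no group carried a transgene or another treatment according to the labels. The labels name shoot tissue, whereas the extraction protocol speaks of mesocotyls, and neither soil water contents nor durations of treatment are given. The arrays are titled as biological replicates while the series describes 2 experiments, so p-values measure the spread between these arrays, which may in part be technical.

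GSTs are soluble enzymes that join the tripeptide glutathione to reactive or foreign compounds, and some of them reduce lipid peroxides. In plants most belong to the tau and phi classes, large groups that often lie in clusters of duplicated genes. In maize they are best known for detoxifying herbicides in seedling tissue, and conjugates are then moved into the vacuole by transporters of the multidrug resistance-associated protein (MRP) type. The substrates of most numbered members in the plant are not given by the labels, so members are grouped below by how they behaved.

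Values per array are MAS5 signals, linear brightness values in arbitrary units that were scaled by the authors to a common mean per array. Changes are log2 fold changes of the signal plus a constant of 4.56 units, followed by the standard error of a limma model fitted to all arrays, with n = 3 arrays per group. A change is called, and described as a rise or a fall, where its p-value adjusted over the 12111 tested probe sets was below 0.05. The filter level that a probe set had to pass on at least 3 arrays lay between 72.55 and 106.8 units. Of the tested members, 11 lay above it on all 24 arrays and 21 under it on at least 1 array, where the added constant weighs on the fold change. The members gst7, gst28, gst42 and the gst13 probe set S1_x_at lay above it on arrays of Han21 alone, and gst6 on arrays of Ye478 alone. They were tested only through groups where they were high, so the differences given for them below are not independent of the filter. Signals of different probe sets were not set against each other, because probe sets differ in brightness at equal RNA. In RNA from a whole tissue, fewer cells of a type and less RNA per cell cannot be told apart.

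Median signals per array were 154.4 to 192.9 units, and arrays of the same group correlated at r = 0.961 to 0.984 across the tested probe sets, which are not independent replicates. Leaf photosynthetic markers, 17 of 19 of them tested, were bright in every group, with a summed signal of 82280 to 105200 units in Han21 controls and 82460 to 104700 in Ye478 controls. Severe drought brought this sum to 55740 to 71570 units in Han21 and to 52690 to 67580 in Ye478. Of 14 endosperm markers, 2 were tested. The single root marker, zrp4, was at 66.64 to 79.44 units in Han21 and 195.4 to 251.3 in Ye478 controls, and at 42.58 to 57.73 and 56.79 to 69.45 units under severe drought. Dividing-tissue markers, 6 of 7 tested, summed to 1314 to 1585 units in Han21 controls and 484.6 to 522.9 under severe drought, and to 1292 to 1622 and 555.2 to 590.6 units in Ye478. The log2 ratio of the 3' to the 5' actin control probe sets was 1.86 ± 0.16 (SD, n = 3) in Han21 controls and 1.00 ± 0.32 under severe drought, and 2.02 ± 0.24 and 1.08 ± 0.35 in Ye478. Other control pairs moved otherwise. The second actin pair stood at -1.94 ± 0.54 in Han21 controls and -0.91 ± 0.77 under severe drought, and at -1.57 ± 1.19 and 0.11 ± 0.73 in Ye478. The gapdh pair stood at 0.92 ± 0.78 and 1.7 ± 0.44 in Han21 and at -0.57 ± 0.79 and 1.36 ± 0.90 in Ye478. For ef1a the values were 0.66 ± 0.26 and 0.82 ± 0.26 in Han21, and 0.91 ± 0.44 and 1.2 ± 0.16 in Ye478. For Cyph they were 0.51 ± 0.02 and 0.86 ± 0.20 in Han21, and 0.55 ± 0.12 and 0.60 ± 0.18 in Ye478. The first actin ratio was thus lower under severe drought in both lines. The ratios of the second actin, gapdh, ef1a and Cyph pairs were higher in both, some by less than their SD. The part of the marker and control shifts in the drought responses below was not tested.

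**Figure D1:**
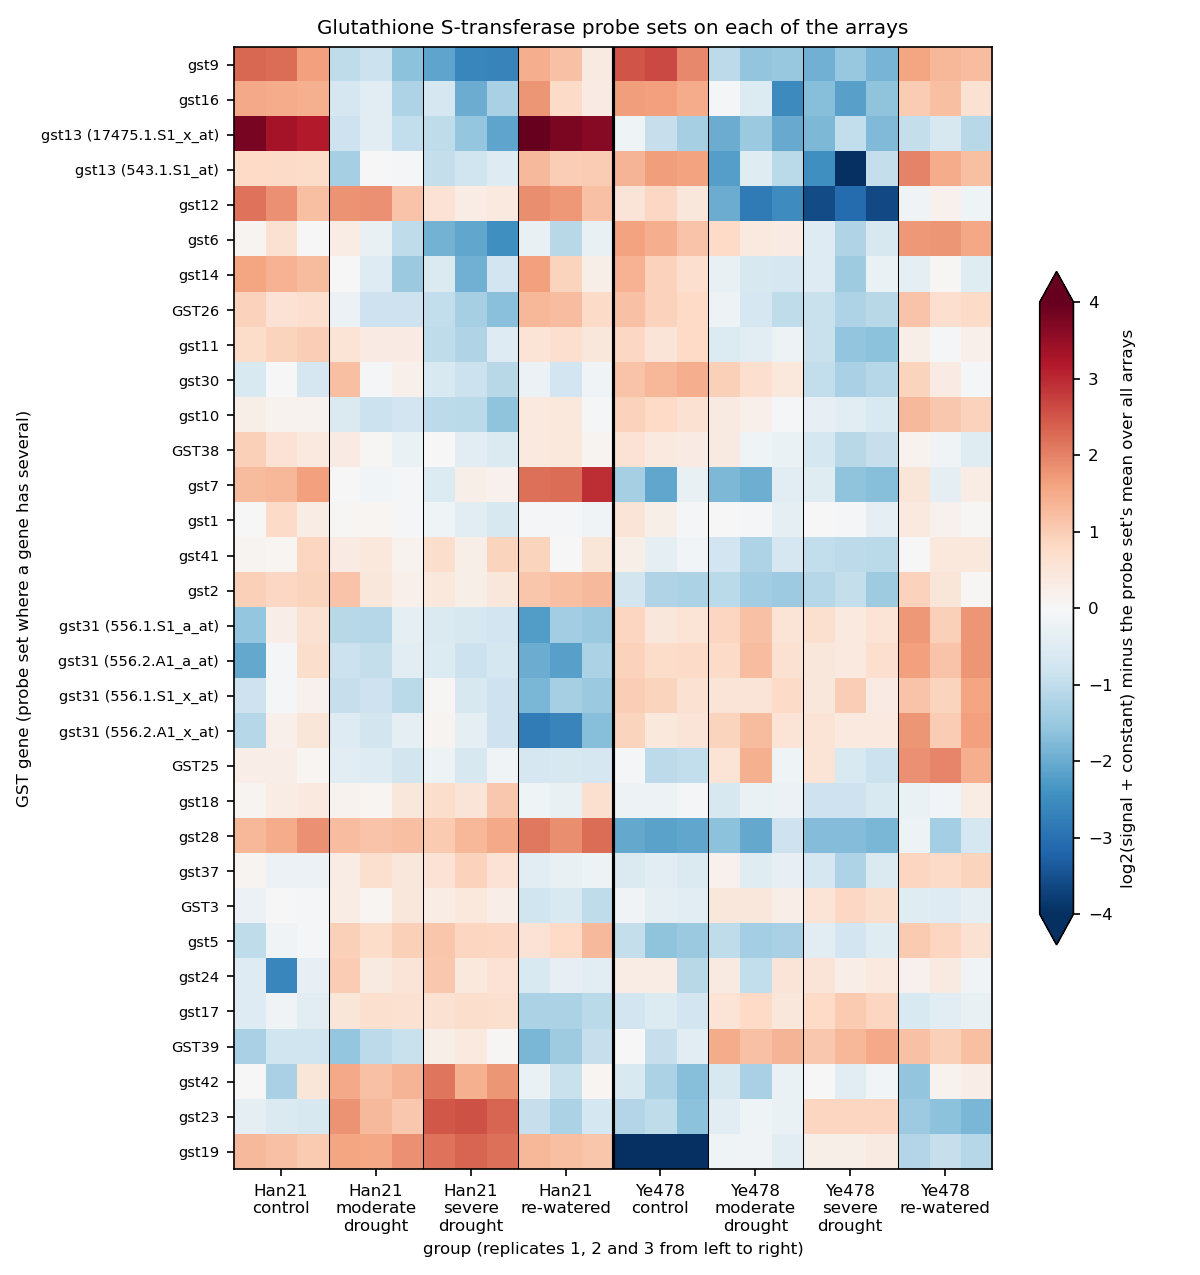
Each of the 32 tested GST probe sets (rows) on each of the 24 arrays (columns, 3 per group), coloured by log2(signal + constant) minus the probe set's mean over all arrays. Colours end at 4 in either direction, and values beyond, such as those of gst19 in Ye478 controls, have the end colour. The gst9 and gst16 rows at the top turn from red in controls to blue in drought, the gst23 and gst19 rows at the bottom are reddest in severely stressed Han21, and the vertical line separates Han21 on the left from Ye478 on the right.

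Under severe drought GST probe sets changed in both directions, as did all tested probe sets. In Han21, 10 of 32 GST probe sets rose and 14 fell, against 28.8% rising and 28.7% falling among all tested probe sets. In Ye478, 6 rose and 13 fell, against 30.3% and 33.3% of all tested. The shares of GST probe sets were 31.2% rising and 43.8% falling in Han21, and 18.8% and 40.6% in Ye478. The median log2 change of the family was -0.43 in Han21 and -0.29 in Ye478, beside 0.03 and -0.02 over all tested probe sets. Across the lines, 10 probe sets fell in both, 6 rose in both, 7 were called in Han21 alone, 2 in Ye478 alone, 1 was called in opposite directions and 6 were called in neither. Of all tested probe sets, 23.4% fell in both, 21.7% rose in both, 11.0% were called in Han21 alone, 17.1% in Ye478 alone, 1.36% in opposite directions and 25.4% in neither.

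**Figure D2:**
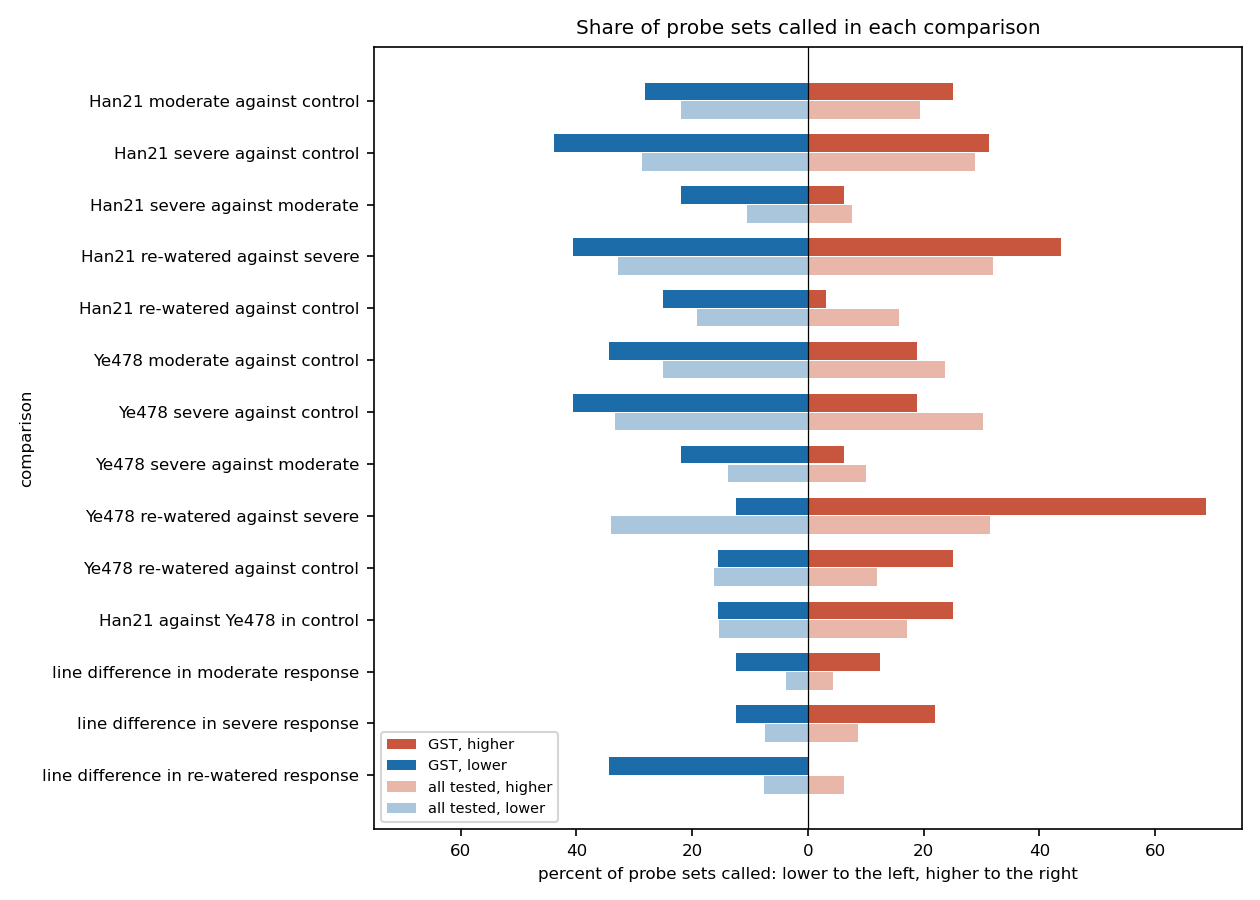
Percent of the 32 GST probe sets (dark bars) and of all 12111 tested probe sets (pale bars) that were called lower (left of 0) or higher (right of 0) in each of 14 comparisons. The longest GST bar, 68.8%, is that of probe sets higher in re-watered than in severely stressed Ye478. In the difference of the re-watered response between the lines the GST bar lies wholly on the left.

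The members that fell in both lines were gst6, gst9, gst10, gst11, gst12, gst14, gst16, GST26, GST38 and the gst13 probe set S1_at. A deep fall in both lines was that of gst9. Its signal on the 3 Han21 control arrays was 694.2, 662.8 and 444.1 units, and under severe drought it was 28.28, 18.71 and 17.72 units. In Ye478 it was 812.6, 891.3 and 540.8 units in controls and 32.74, 45.74 and 34.44 units under severe drought. Control and stressed arrays were thus far apart in either line. Moderate drought had already brought the arrays to 41.45 to 73.78 units in Han21 and 42.78 to 65.01 units in Ye478. The log2 change under severe drought was -4.53 ± 0.27 in Han21 (adjusted p = 1.37e-11) and -4.14 ± 0.27 in Ye478 (adjusted p = 3.08e-11). As the stressed arrays lay under the filter level, these values rested in part on the constant and were -4.80 and -4.30 without it and -3.94 and -3.75 at 4 times its size. The responses of the lines differed by -0.39, with a 95% interval of -1.19 to 0.41, which was not called.

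The signal of gst16 in Han21 was 130.9, 127.9 and 122.4 units in controls and 25.45, 7.38 and 14.71 units under severe drought. In Ye478 it was 146.1, 144.6 and 129.8 units in controls and 10.08, 6.01 and 11.1 units under severe drought. Every control array lay above every drought array of its line, and all drought values were below the filter level. The change under severe drought was -2.79 ± 0.47 in Han21 (adjusted p = 2.8e-05) and -3.43 ± 0.47 in Ye478 (adjusted p = 1.54e-06). At 4 times the constant these became -2.12 and -2.54, and without it -3.18 and -3.998. Across the 8 group means gst16 was the member most like gst9 (r = 0.978), a description over groups that share arrays and scaling.

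For gst14 the Han21 controls read 239.2, 210.5 and 193 units and the arrays of severe drought 50.16, 17.01 and 43.24 units. The Ye478 controls read 209.5, 149.7 and 126.6 units and those of severe drought 52.19, 26.02 and 63.24 units. The groups did not overlap in either line. The falls were -2.51 ± 0.39 and -1.73 ± 0.39 on the log2 scale, in Han21 and Ye478.

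GST26 fell from 183.1 ± 24.5 (SD, n = 3) to 41.6 ± 11.0 units in Han21 and from 219.8 ± 30.3 to 49.1 ± 6.9 units in Ye478, by -2.04 ± 0.23 and -2.06 ± 0.23. The fall of gst11 was -1.77 ± 0.19 in Han21, from 354.1 ± 29.7 to 102.7 ± 27.2 units, and -2.08 ± 0.19 in Ye478, from 319.7 ± 38.1 to 73.7 ± 23.5 units. These were of like size in the lines, with line differences of 0.02 and 0.32 that were not called. The members gst10 and GST38 fell less, by between -0.97 ± 0.21 and -1.40 ± 0.16 in Han21 and between -1.23 ± 0.16 and -1.35 ± 0.21 in Ye478. The fall of gst6 was -2.38 ± 0.30 in Han21, where its signal was already low in controls (50.8 ± 12.7 units) and 6.03 ± 2.10 units under severe drought. Without the constant this value became -3.11, and at 4 times the constant -1.50. In Ye478 gst6 went from 118.9 ± 19.4 to 22.8 ± 6.5 units, a change of -2.19 ± 0.30.

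**Figure D3:**
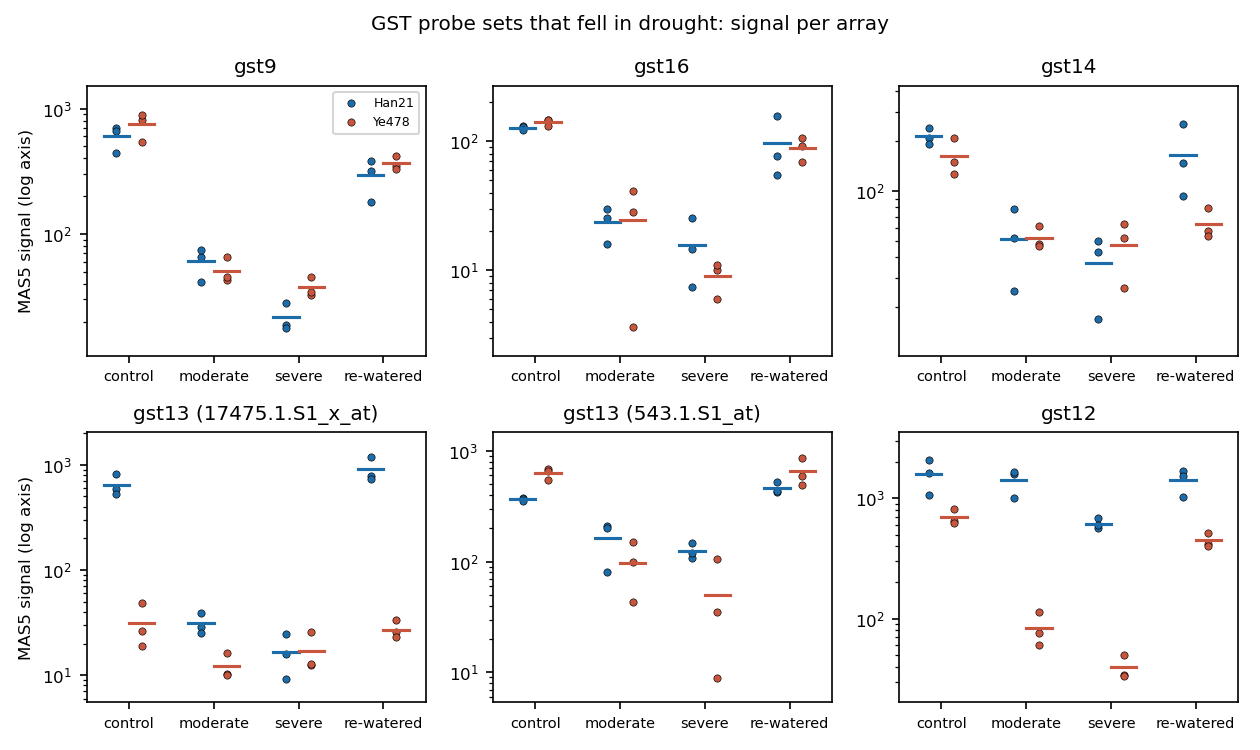
MAS5 signal on each array (points, log axis) and the mean of each group (bars) for 6 GST probe sets that fell in drought, with Han21 in blue and Ye478 in red. The points of gst9, gst16 and gst14 drop together in both lines, those of the gst13 probe set S1_x_at drop from a high control in Han21 alone, and those of gst12 drop furthest in Ye478.

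The fall of gst12 differed between the lines. The line differences of the gst13 probe sets had opposite signs, with S1_x_at under the filter level in Ye478 controls. In Han21 gst12 read 2075, 1630 and 1069 units in controls, 1596, 1642 and 1007 under moderate drought and 683.7, 566.5 and 600 under severe drought. In Ye478 it read 651, 809.1 and 622.7 units in controls, 113.1, 60.27 and 76.01 under moderate drought and 34.08, 50.39 and 33.59 under severe drought. Moderate drought left the Han21 arrays within the range of their controls or close below it, whereas all Ye478 arrays had dropped. The change under moderate drought was -0.15 ± 0.25 in Han21, which was not called, and -3.03 ± 0.25 in Ye478 (adjusted p = 2.87e-09). Under severe drought it was -1.31 ± 0.25 in Han21 and -4.0 ± 0.25 in Ye478, the latter -4.16 without the constant and -3.63 at 4 times its size, since the stressed Ye478 arrays lay under the filter level. The line difference, Han21 minus Ye478, was 2.88 ± 0.36 in the moderate response (adjusted p = 2.06e-05) and 2.69 ± 0.36 in the severe response (adjusted p = 2.26e-05).

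The gene gst13 is measured by 2 probe sets that behaved differently. S1_x_at, whose suffix marks probes that may match other transcripts too, read 810.8, 591.7 and 527.6 units in Han21 controls and 24.86, 15.76 and 9.18 units under severe drought. In Ye478 it read 48.06, 26.26 and 19.07 units in controls and 12.55, 25.52 and 12.78 under severe drought. Its signal was therefore high in Han21 controls alone among these 4 groups, and all the Ye478 values lay under the filter level. The change under severe drought was -4.98 ± 0.32 in Han21 (adjusted p = 3.71e-11) and -0.70 ± 0.32 in Ye478 (adjusted p = 0.0625), which was not called. The Han21 value became -5.37 without the constant and -4.25 at 4 times its size, since the stressed arrays lay under the filter level. Under moderate drought it fell by -4.18 ± 0.32 in Han21 and -1.02 ± 0.32 in Ye478, the latter no longer called without replicate 1 (-0.62) and -0.66 with 4 times the constant.

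The other gst13 probe set, S1_at, read 373.3, 366.4 and 353.8 units in Han21 controls and 108.2, 120.8 and 147.7 under severe drought. In Ye478 it read 550.7, 681.4 and 655.9 units in controls and 34.83, 8.92 and 106.5 under severe drought. Here the deeper fall was in Ye478, with a wide spread between its stressed arrays. The change was -1.51 ± 0.50 in Han21 (adjusted p = 0.0141), a call that ended without replicate 1, and -4.02 ± 0.50 in Ye478 (adjusted p = 5.08e-07), the latter -4.29 without the constant and -3.51 at 4 times its size. The line difference in the severe response was -4.28 ± 0.45 for the first probe set (adjusted p = 1.61e-06) and 2.51 ± 0.71 for the second (adjusted p = 0.0188). The signs were opposite, but the first probe set lay under the filter level in Ye478 controls and had little signal to lose there. Its line difference therefore largely restates the difference between the controls and does not show opposite drought responses. The second difference was no longer called without replicate 1, without replicate 2 or without the Ye478 severe array of replicate 2. Whether the probes match the sequence of both lines equally was not examined.

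The members that rose under severe drought in both lines were GST3, gst5, gst17, gst19, gst23 and GST39. The signal of gst23 in Han21 was 312.7, 267.4 and 258.7 units in controls, 1396, 996.2 and 854.7 under moderate and 2291, 2360 and 2052 under severe drought. In Ye478 it was 175.7, 195.4 and 126.6 units in controls, 296.6, 359.3 and 334.3 under moderate and 727.7, 727.5 and 729.2 under severe drought. The groups of each line stood in the order control, moderate, severe with no overlap. The change under severe drought was 2.98 ± 0.18 in Han21 (adjusted p = 1.07e-11), a 7.89-fold rise, and 2.13 ± 0.18 in Ye478 (adjusted p = 1.11e-09), a 4.37-fold rise. Severe exceeded moderate drought by 1.07 ± 0.18 in Han21 and 1.13 ± 0.18 in Ye478, and gst23 was the only member that rose from moderate to severe drought in both lines.

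The signal of gst19 in Han21 was 1603, 1472 and 1337 units in controls and 2964, 3302 and 3008 under severe drought. In Ye478 controls it was 9.81, 27.91 and 6.37 units, all under the filter level, and under severe drought it was 763.4, 757.8 and 837.2 units. The lowest Han21 control array was thus brighter than every stressed Ye478 array. The change under severe drought was 1.07 ± 0.24 in Han21 (adjusted p = 0.000539) and 5.52 ± 0.24 in Ye478 (adjusted p = 7.07e-14). Because of the low controls, the Ye478 value rested on the constant and became 6.03 without it and 4.66 at 4 times its size. The line difference in the severe response was -4.45 ± 0.33 (adjusted p = 2.29e-08).

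The signal of gst17 rose from 778.1 ± 111.2 to 1584 ± 66 units in Han21 (1.03 ± 0.12) and from 624.6 ± 59.8 to 1888 ± 160 in Ye478 (1.59 ± 0.12). GST3 rose from 1553 ± 141 to 2081 ± 137 units in Han21 (0.42 ± 0.12, a call that ended without replicate 1) and from 1335 ± 151 to 2671 ± 269 in Ye478 (1.00 ± 0.12). Both thus rose somewhat further in Ye478, with line differences of -0.56 ± 0.17 for gst17 and -0.58 ± 0.17 for GST3, and both calls ended without replicate 2 or without replicate 3. Across the 8 groups the means of these members correlated at r = 0.973. GST39 rose from 159.9 ± 30.8 to 368.7 ± 43.4 units in Han21 (1.19 ± 0.23) and from 234.5 ± 76.1 to 787.9 ± 115.8 in Ye478 (1.77 ± 0.23). For gst5 the rise was 1.34 ± 0.22 in Han21, from 1544 ± 500 to 3760 ± 394 units, and 0.79 ± 0.22 in Ye478, from 787.7 ± 205.0 to 1348 ± 167 units. The Ye478 call of gst5 ended without replicate 2.

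**Figure D4:**
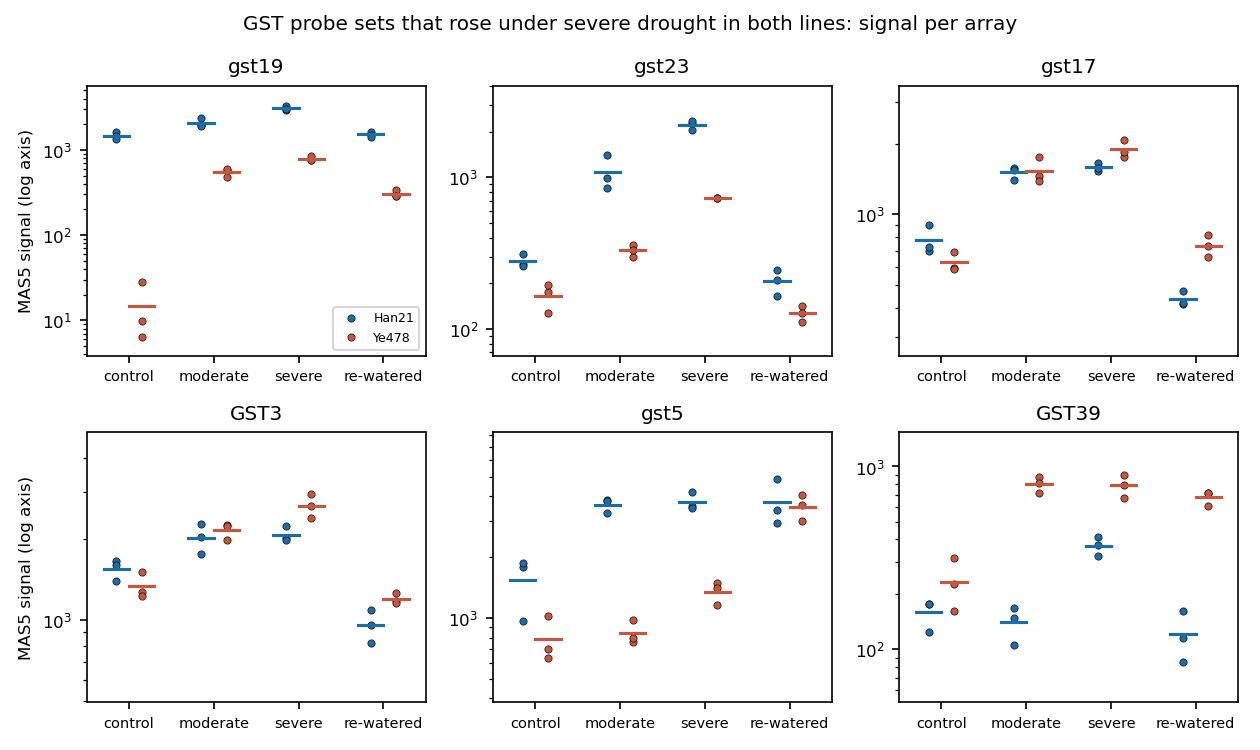
MAS5 signal on each array (points, log axis) and group means (bars) for the 6 GST probe sets that rose under severe drought in both lines, with Han21 in blue and Ye478 in red. The gst23 and gst17 points fall back on re-watering, the gst5 points do not, and the gst19 points of Ye478 controls lie far below all others of that probe set.

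Under severe drought 7 probe sets were called in Han21 alone. Of these, gst24, gst37 and gst42 rose and gst1, gst2, gst7 and the gst13 probe set S1_x_at fell. The rise of gst42 was 2.03 ± 0.46, from 25.9 ± 16.2 to 108.0 ± 27.7 units. In Ye478, where its arrays stayed at 34.15 units or below, the change was 1.02 ± 0.46 and was not called. It lay above the filter level on 4 of 24 arrays, all from Han21 under drought. This probe set was thus tested only through the groups where it was high. The rise of gst24 was 1.84 ± 0.46, from control arrays of 75.07, 14.44 and 86.34 units to stressed arrays of 236.7, 150.3 and 166 units. The second control array was far below the others, and without it the change was 1.12. The arrays of gst24 are given because of this array, a choice made after its values were seen. For gst42 and gst24 the line difference was not called (1.01, with an interval of -0.35 to 2.38, and 1.28, with an interval of -0.09 to 2.65), so they were not shown to respond differently in the lines. The rise of gst37 was 0.81 ± 0.18, beside -0.29 ± 0.18 in Ye478, and the difference of 1.10 ± 0.25 was called (adjusted p = 0.00412) but not without replicate 2 (0.69).

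Besides the deep fall of the gst13 probe set S1_x_at given above, 3 members fell in Han21 alone. For gst1, whose product GST I is a herbicide-conjugating enzyme of maize, the signal fell from 8005 ± 2144 to 4639 ± 743 units (-0.77 ± 0.17, not called without replicate 2). The fall of gst7 was -1.47 ± 0.44 (not called without replicate 1), from 66.76, 70.28 and 88.13 units to 15.5, 30.09 and 28.7 units. The fall of gst2 was -0.51 ± 0.21 with an adjusted p of 0.0466, and it ended in 9 of 17 alternatives. The line difference in the severe response was not called for gst1 (-0.41 ± 0.24), gst2 (-0.39 ± 0.30) or gst7 (-1.44 ± 0.63).

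The members called in Ye478 alone were gst30 and gst41, which fell. In Ye478 gst30 read 340.6, 392.9 and 420.8 units in controls, 298.6, 246 and 205.4 under moderate drought and 75.33, 60 and 66.14 under severe drought. In Han21 it read 98.52, 149.5 and 94.21 units in controls, 355.1, 147.3 and 176.9 under moderate drought and 98.77, 82.07 and 67.8 under severe drought. The Ye478 groups were apart, whereas in Han21 the control and severe groups overlapped. The change under severe drought was -2.44 ± 0.28 in Ye478 (adjusted p = 1.32e-07) and -0.43 ± 0.28 in Han21, with a called difference of 2.02 ± 0.39 (adjusted p = 0.00118). The rise of gst30 under moderate drought in Han21 (0.89 ± 0.28) rested on the first moderate array, without which it was 0.52 and not called. The fall of gst41 in Ye478 was -0.95 ± 0.24, from 207.8 ± 46.1 to 103.8 ± 3.7 units.

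Only gst18 was called in opposite directions, with 175.0 ± 18.7 units in Han21 controls and 253.2 ± 51.4 under severe drought (0.51 ± 0.21, adjusted p = 0.0465), and 129.6 ± 8.9 and 83.9 ± 7.3 units in Ye478 (-0.60 ± 0.21, adjusted p = 0.0178). Both calls were weak: the first ended in 10 and the second in 5 of 16 alternatives, and the second was -0.28 under quantile normalization. The direct difference of 1.11 ± 0.30 (adjusted p = 0.0141) ended without replicate 1 or without replicate 2. The probe sets called in neither line under severe drought were those of gst28 and GST25 and the 4 of gst31.

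Under moderate drought 8 GST probe sets rose and 9 fell in Han21, against 19.3% and 22.0% of all tested probe sets. In Ye478, 6 rose and 11 fell, against 23.6% and 25.0%. With a filter at the 60th percentile, which also removes dim members from the test, the Han21 count of called members was 11 in place of 17. Those that fell in both lines were gst9, gst10, gst14, gst16, GST26 and the gst13 probe set S1_x_at, and those that rose in both were GST3, gst17 and gst23. The Han21 call of GST3 (0.38) ended in 5 of 17 alternatives, among them leaving out replicate 1 or replicate 3. In Ye478 alone gst19 rose (5.00 ± 0.24), as did GST39 (1.80 ± 0.23) and GST25 (1.30 ± 0.35). GST25 read 73.94, 35.5 and 37.6 units in Ye478 controls and 117.9, 218.8 and 68.36 under moderate drought, groups that overlap, and the call ended without replicate 2 (0.72). In Han21 alone gst5 rose (1.29 ± 0.22), beside 0.12 ± 0.22 in Ye478. The other rises called in Han21 alone were those of gst24 (1.8), gst42 (1.61), gst30 (0.89) and gst37 (0.57). Of these, the line difference was called for gst30 only. The gst42 and gst37 calls ended without replicate 2, and the gst30 call ended without replicate 1.

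From moderate to severe drought 2 GST probe sets rose and 7 fell in Han21, against 7.56% and 10.5% of all tested. In Ye478 it was again 2 and 7, against 10.1% and 13.8%. Without replicate 2 the called numbers were 5 in Han21 and 4 in Ye478. The members gst6, gst10, gst11, gst12 and gst30 fell between the droughts in both lines, whether or not moderate drought had already changed them. Of these, gst11 fell by -1.31 ± 0.19 in Han21 and -0.98 ± 0.19 in Ye478, and gst30 by -1.31 ± 0.28 and -1.82 ± 0.28. The Han21 call of gst10 ended in 7 of 17 alternatives, among them leaving out any 1 replicate number. That of gst12 in Han21 ended without replicate 2. For gst6 in Han21, with all arrays under the filter level, the fall was -1.81. It was -2.46 without the constant and -1.07 at 4 times its size. The fall of gst9 between the droughts was called in Han21 (-1.30 ± 0.27, not without replicate 2) and was -0.39 in Ye478, where it was not called. GST39 rose between the droughts in Han21 by 1.38 ± 0.23, after a change of -0.19 ± 0.23 under moderate drought that was not called.

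After re-watering most responses turned back, among the GSTs as among all tested probe sets. In Han21, 9 of the 10 probe sets that had risen under severe drought were lower in re-watered than in severely stressed plants, and 13 of the 14 that had fallen were higher. In Ye478 this held for 4 of 6 and for 12 of 13. Over all tested probe sets the shares were 78.5% and 79.8% in Han21 and 82.6% and 79.3% in Ye478. Both comparisons use the severe arrays and are not independent. In all, 14 GST probe sets were higher and 13 lower in re-watered than in severely stressed Han21, against 32.0% and 32.9% of all tested. In Ye478, 22 were higher and 4 lower, against 31.5% and 34.1%, and the median log2 change was 1.02 beside -0.06 over all tested. The share of GST probe sets higher was 68.8%. The 22 include the 4 probe sets of gst31, and by gene 19 of 28 were higher. The 13 lower in Han21 include the same 4 probe sets, and by gene 10 of 28 were lower there. The summed signal of the dividing-tissue markers was 1925 to 3025 units in re-watered Han21 and 887.3 to 959.2 in re-watered Ye478, above and below the respective controls, and its part in the line differences was not tested.

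The largest return among the members was that of the gst13 probe set S1_x_at in Han21, to 1194, 790 and 730.6 units, which overlapped the controls and exceeded severe drought by 5.46 ± 0.32. The other gst13 probe set returned in Ye478 to 861.6, 597.8 and 493.9 units, a rise of 4.04 ± 0.50 over severe drought. Both lay within 0.5 of their control on the log2 scale, at 0.48 and 0.02. The signal of gst12 came back to 418.6, 517.7 and 404.8 units in Ye478, still below each of its controls, a difference of -0.63 ± 0.25 that was not called. The rise of gst23 was undone, with 210.7, 164 and 245.1 units in re-watered Han21 and 142.6, 126.6 and 110.7 in Ye478.

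Set against the controls, 1 GST probe set was higher and 8 were lower in re-watered Han21, while 15.7% of all tested were higher and 19.2% lower. The 8 include every probe set of gst31, and by gene 1 of 28 was higher and 5 were lower. With the replicate number as a block, which pairs arrays of the same number, 3 GST probe sets were higher and 12 lower. Without replicate 2 the called number of probe sets was 5. In re-watered Ye478, 8 were higher and 5 lower, against 12.0% and 16.3%. Without replicate 2, 7 were called there and all were higher. The probe set higher in both lines was that of gst5, with 3731 ± 998 units in Han21 (1.30 ± 0.22) and 3548 ± 507 in Ye478 (2.19 ± 0.22). The member lower in both was gst9, with 384.6, 318.3 and 180.1 units in Han21 (-1.06 ± 0.27) and 419.7, 349.7 and 328.8 in Ye478 (-0.998 ± 0.273), and neither call held without replicate 2. In Han21 gst17 and GST3 went below their controls after having risen in drought, by -0.82 ± 0.12 and -0.70 ± 0.12. They were the 2 members of that line called in the opposite direction to severe drought.

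In Ye478 some members stayed high or rose only after re-watering. The signal of gst19 was 286.2, 342.7 and 290.6 units, 4.17 ± 0.24 above the control (adjusted p = 1.54e-11), while in Han21 it was 1642, 1505 and 1402 units, 0.04 ± 0.24 from the control. GST25 read 292.4, 319.5 and 223.6 units in re-watered Ye478, above all other groups, and 47.31, 48.78 and 47.29 in re-watered Han21, below the Han21 controls of 96.24, 94.86 and 82.99. The change was 2.46 ± 0.35 in Ye478 (adjusted p = 1.28e-05) and -0.87 ± 0.35 in Han21, which was not called. GST39 stayed 1.56 ± 0.23 above its control in Ye478. In the same line gst2 went from 311.4 ± 67.7 to 936.3 ± 286.7 units (1.55 ± 0.22) and gst37 from 145.8 ± 8.8 to 384.3 ± 15.5 units (1.37 ± 0.18), neither having risen in drought there. The dim members gst7 and gst28 also rose over their Ye478 controls, by 1.37 ± 0.44 and 1.33 ± 0.29, values that became 0.78 and 0.70 at 4 times the constant. The gst7 call ended in 7 of 16 alternatives and that of gst28 without replicate 1.

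The gene gst31 moved the other way in Han21. Its probe set A1_x_at read 185.5, 475.2 and 587.2 units in Han21 controls, 443.3, 320.7 and 233.1 under severe drought and 56.25, 62.14 and 123.1 after re-watering. In Ye478 it read 776, 559.7 and 599.6 units in controls, 611.3, 549.2 and 546.6 under severe drought and 1418, 837.6 and 1306 after re-watering. Of these groups the re-watered arrays were the lowest in Han21 and the highest in Ye478. The change against control was -2.23 ± 0.34 in Han21 (adjusted p = 2.86e-05) and 0.85 ± 0.34 in Ye478 (adjusted p = 0.0644), which was not called. The group means of the other gst31 probe sets were 168.9 to 312.9 units in Han21 controls, 62.98 to 94.68 in re-watered Han21, 346.4 to 502.2 in Ye478 controls and 454.4 to 886.5 in re-watered Ye478. They changed by -1.32 ± 0.25 to -1.46 ± 0.38 in Han21, calls that for S1_a_at and A1_a_at ended without replicate 2 or 3. Pairs of probe sets of the same gene, those of gst31 and gst13, had a median r of 0.968 with a lowest value of 0.499, that of the gst13 pair. The first Han21 control array was low for all 4, and without it the fall of A1_a_at was -2.14 in place of -1.35, and without the third it was -0.77 and not called. All 4 carry suffixes that mark probes shared with other transcripts or with variants of the same gene.

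In control plants 8 GST probe sets were higher and 5 lower in Han21 than in Ye478, against 17.2% and 15.3% of all tested. The largest difference was that of gst19, at 6.42 ± 0.24 (adjusted p = 3.49e-14), with the arrays given above. Without the constant it became 6.93, and at 4 times its size 5.55. The gst13 probe set S1_x_at followed, at 4.24 ± 0.32 (adjusted p = 7e-10). The signal of gst28 was 93.07, 105.8 and 135.1 units in Han21 and 4.89, 4.36 and 4.72 in Ye478, a difference of 3.64 ± 0.29 (4.56 without the constant, 2.49 at 4 times its size). In Han21 gst28 was between 76.71 and 178.9 units on every array of the line and in Ye478 at 29.54 units or below. It lay above the filter level on 8 of 24 arrays, all from Han21, so it was tested only through the line where it was high. Whether the probes of the members named in these comparisons of controls match the sequence of both lines equally was not examined. The signal of gst7 was 66.76, 70.28 and 88.13 units in Han21 controls and 7.16, 2.5 and 19.62 in Ye478 controls (2.65 ± 0.44, or 3.40 without the constant and 1.77 at 4 times its size). Further members higher in Han21 were gst2 (1.94 ± 0.22), gst12 (1.15 ± 0.25), gst5 (0.94 ± 0.22) and gst23 (0.75 ± 0.18), the gst5 call ending without replicate 2 or without replicate 3.

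Members higher in Ye478 controls were gst30 (-1.74 ± 0.28 as Han21 minus Ye478), gst6 (-1.17 ± 0.30), gst10 (-0.61 ± 0.16) and the gst31 probe sets S1_x_at (-1.07 ± 0.25) and A1_a_at (-1.27 ± 0.41). The calls of gst6 and of both gst31 probe sets ended without replicate 1, where the latter were -0.70 and -0.42, and that of gst10 ended without replicate 2.

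**Figure D5:**
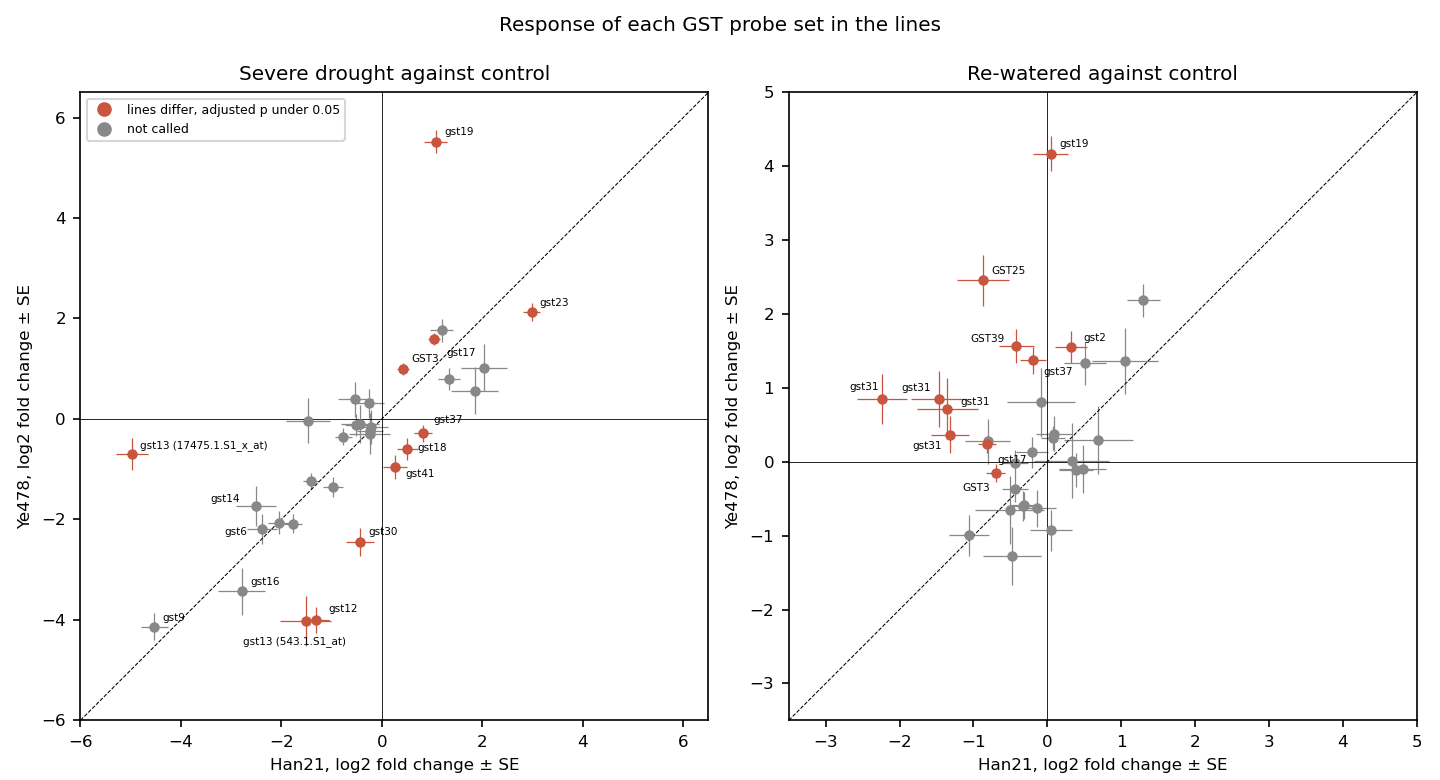
Log2 fold change of each GST probe set against control in Han21 (x axis) and Ye478 (y axis), with standard errors, under severe drought (left) and after re-watering (right). Red points mark probe sets whose change differed between the lines (11 on either side) and the dashed line marks equal change. On the right all red points lie above it.

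The line difference in a response was tested as the change in Han21 minus the change in Ye478. In the moderate response it was called higher for 4 and lower for 4 GST probe sets, against 4.40% and 3.74% of all tested. In the severe response it was higher for 7 and lower for 4, against 8.71% and 7.46%. In the re-watered response it was higher for 0 and lower for 11, against 6.18% and 7.56%. At an unadjusted p below 0.05, limma gave 1 higher, gst30, and 13 lower. The 11 called probe sets stand for 8 genes, gst2, GST3, gst17, gst19, GST25, gst31, gst37 and GST39. The GST3 call (adjusted p = 0.0382) ended in 14 of 23 alternatives, among them leaving out any 1 replicate number. The median of the re-watered difference over all 32 was -0.38, beside 0.04 over all tested probe sets. These numbers rested on single sets of arrays: without replicate 2 they were 3 in the moderate, 5 in the severe and 5 in the re-watered response, without replicate 1 the severe number was 7, without the Han21 control array of replicate 2 it was 7, and without replicate 3 the re-watered number was 7.

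The most different responses were those of gst19, at -4.51 ± 0.33 under moderate drought and -4.13 ± 0.33 after re-watering (adjusted p = 1.56e-07). These values and the severe difference share the same Ye478 control arrays, which lay under the filter level, so they are not independent. The Ye478 rise of gst19 under moderate drought was 5.50 without the constant and 4.15 at 4 times its size. After re-watering GST25 differed by -3.33 ± 0.49 (adjusted p = 0.000105) and the gst31 probe set A1_x_at by -3.09 ± 0.48 (adjusted p = 0.000176). The line difference of GST39 was -1.99 ± 0.33 under moderate drought and -1.98 ± 0.33 after re-watering, and both ended without replicate 2. The difference of gst37 after re-watering was -1.56 ± 0.25 (adjusted p = 0.000242) and that of gst17 -1.06 ± 0.17 (adjusted p = 0.000256), and neither was ended by an alternative.

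Where members lie close together on a chromosome, their profiles were set side by side. By the order of protein-coding genes in the RefSeq table, with at most 10 other genes in between, 16 of the 31 genes fall into 5 neighbourhoods. They are gst11, gst12, gst10 and gst31; gst42, gst32, gst37, GST39, GST38 and gst30; gst28 and gst7; gst13 and gst9; and GST25 and gst35. Pairs of neighbours had a median r of -0.00085 over the 8 group means, from -0.709 to 0.87 (28 pairs of probe sets), and all other pairs of different genes a median of 0.04, from -0.982 to 0.978 (461 pairs). Every probe set of gst31 was paired with gst10, gst11 and gst12, so this gene weighs more than the others among the neighbours. Neighbours were thus alike in some cases and unlike in others. The adjacent genes gst7 and gst28 (r = 0.856) were both far higher in Han21 controls, and gst9 correlated at r = 0.87 with the S1_at probe set of gst13, the gene next to it, and at r = 0.579 with its S1_x_at probe set. In the neighbourhood of gst30, by contrast, gst30 and GST38 fell in severely stressed Ye478 while GST39 rose. The most opposed members of the family were gst10 and gst23, at r = -0.982.

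Other genes with a part in glutathione use were examined under severe drought, where the shares over all tested probe sets are those given above. In2-1, a GST-like gene first known as inducible by herbicide safeners, rose from 202.0 ± 22.1 to 558.5 ± 115.7 units in severely stressed Han21 (1.43 ± 0.19) and from 383.6 ± 13.6 to 1618 ± 289 in Ye478 (2.05 ± 0.19). A list of genes of glutathione synthesis, of glyoxalase and of the glutathione and ascorbate cycle had 7 of 8 probe sets tested. Of these, 5 rose and 1 fell under severe drought in each line. Among the rises was gsh1, the gene of the enzyme that joins glutamate to cysteine in glutathione synthesis (0.69 ± 0.13 in Han21 and 1.06 ± 0.13 in Ye478). Another was gs, with the synonym gsh2, the gene of glutathione synthetase (0.68 ± 0.16 and 0.78 ± 0.16). The list stands for 5 genes. Its 3 tested probe sets of the glyoxalase gene glx1 rose in both lines, by 0.60 to 0.73 in Han21 and by 0.88 to 1.07 in Ye478. What fell, named after its values were seen, was gor1, the glutathione reductase gene, in Ye478 (-0.63 ± 0.17) and apx, an ascorbate peroxidase gene, in Han21 (-0.36 ± 0.12). Both belong to the cycle itself, and neither rose in either line.

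Of the superoxide dismutases and catalases, 7 of 9 probe sets were tested, with 4 rising and 1 falling in Han21 and 5 and 1 in Ye478. Both tested cat1 probe sets rose, by 1.19 and 1.60 in Han21 and by 1.87 and 2.60 in Ye478, as did sod2, a superoxide dismutase gene, in Ye478 (0.83 ± 0.16), while Cat0, with the synonym cat2, fell in Han21 (-1.01 ± 0.20) and CAT3 in Ye478 (-1.32 ± 0.17). Of the conjugate transporters, 3 of 4 probe sets were tested, and 1 rose in Han21 and 3 in Ye478. MRP1 rose from 279.5 ± 22.8 to 1222 ± 187 units in Ye478 (2.10 ± 0.29) and stayed at 116.7 ± 37.4 and 122.7 ± 57.8 in Han21 (0.03 ± 0.29). MRP2 rose in both lines (0.73 ± 0.20 and 0.98 ± 0.20), and lpa1, which encodes an MRP transporter needed for phytic acid storage in maize seed, rose in Ye478 (0.82 ± 0.15).

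The untested members gst8, gst32 and gst35 lay under the filter level on all 24 arrays, between 0.97 and 72.52 units. Their group means were 13.67 to 51.09 units for gst8, 4.29 to 8.55 for gst32 and 7.69 to 34.56 for gst35. They were removed by the filter and not tested, so no difference between their groups was called or excluded.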

How the data were processed

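RNA was hybridised to Affymetrix maize arrays. The deposited intensity values are signals that the authors made with MAS5 in GCOS, per the submitters' processing notes, which give no version; their 2% trimmed mean per array was 500.1 to 500.2 units. From these values log2(signal + 4.56) was computed, the constant being the 10th percentile of all values. Control probe sets (113) were left out, as were 5510 that passed their array's 40th percentile on fewer than 3 arrays. limma 3.58.1 (R 4.3.3) fitted 1 mean per group over the 24 arrays, with eBayes trend and Benjamini-Hochberg adjustment within each of 14 contrasts. The fit was also run on simulated arrays with independent noise. These lack the shared deviations given below, so that run cannot vouch for the calls. No batch is named in the labels. Arrays of the same replicate number deviated together in every pair of compared groups (r = 0.154 to 0.692), so a fit with the number as a block was an alternative, beside other scalings, filters and constants, a fit of only the groups compared, and leaving out each replicate. Members given array by array were the 10 with the largest change against control among those called with no overlap of arrays, the 4 with the largest called line difference in control, the 4 with the largest in a response, and gst9, gst13 and gst19. Other members are given by group means, ranges and counts, and of the other lists up to 5 called probe sets with the largest change in severe drought are named. The members and lists were chosen with earlier results of these data known. Gene names and gene order come from a RefSeq table, matched for all 35 members, and no coordinate of it is printed. Python 3.11.15 with pandas 2.3.3 and matplotlib 3.10.9 drew the figures.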

Additional observations from a re-analysis of the deposited data

Results flagged for a closer look

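The change in Han21 minus the change in Ye478 was called for 30 combinations of a GST probe set and a watering state, which are given here as log2 values with no explanation. Groups of 3 arrays are too small for a test of single outlying arrays, so none was run. Each array was left out of the fit in turn instead.

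In the moderate response the Han21 change was the greater for gst12 (2.88), gst30 (1.51), gst5 (1.17) and gst23 (0.92), and the smaller for gst19 (-4.51), the gst13 probe set S1_x_at (-3.16), GST25 (-2.08) and GST39 (-1.99). For gst30 this compares a rise in Han21 that rested on 1 array with a change in Ye478 that was not called. The difference ended in 10 of 23 alternatives for gst23, quantile normalization among them, and in 6 of 23 each for gst5 and gst30. That of GST39 ended without replicate 2.

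In the severe response it was greater for gst12 (2.69), the gst13 probe set S1_at (2.51), gst30 (2.02), gst41 (1.21), gst18 (1.11), gst37 (1.10) and gst23 (0.85). It was smaller for gst19 (-4.45), the gst13 probe set S1_x_at (-4.28), GST3 (-0.58) and gst17 (-0.56). The probe sets of gst13 stand on opposite sides here, but S1_x_at lay under the filter level in Ye478 controls and had little signal to lose there. The difference ended in 10 of 23 alternatives for GST3, 9 for gst17, 6 for gst23 and 4 for gst41. It ended in 3 of 23 for the gst13 probe set S1_at, in 2 of 22 for gst18, and without replicate 2 for gst37.

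In the re-watered response every called difference was negative. The values were -4.13 for gst19, -3.33 for GST25, -1.98 for GST39, -1.56 for gst37, -1.23 for gst2, -1.06 for gst17 and -0.55 for GST3. For the gst31 probe sets they were -3.09 (A1_x_at), -2.31 (S1_a_at), -2.07 (A1_a_at) and -1.68 (S1_x_at). The difference ended in 14 of 23 alternatives for GST3, in 7 for the gst31 probe set A1_a_at and in 2 each for S1_a_at and S1_x_at. That of GST39 ended without replicate 2.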

How the results depend on the processing

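Of 213 calls of GST probe sets, 135 were ended by no alternative, 78 by at least 1 and 0 changed direction. Leaving out replicate 2 ended the most, 60, beside 37 without replicate 1 and 32 without replicate 3. Fitting only the groups compared ended 15, quantile normalization 9, dropping the filter 6, median centring 3, dropping the constant 3, 4 times the constant 1, the 60th percentile filter 0 of the 159 still tested and the replicate block 0. The number of GST probe sets called moved by over 1.5 times in these cases. With the 60th percentile filter it was 11 in place of 17 for Han21 under moderate drought against control, where fewer probe sets were tested. With the replicate block it was 15 in place of 9 for re-watered Han21 against control, and the block moved no other number so far. When arrays were left out, it ranged from 5 to 10 (Han21, severe against moderate), 5 to 11 (Han21, re-watered against control), 4 to 10 (Ye478, severe against moderate), 7 to 12 (Ye478, re-watered against control), and for line differences from 3 to 8 (moderate), 5 to 11 (severe) and 5 to 12 (re-watered). Such fits have fewer arrays. Scaling moved the median of all probe sets by -0.05 to 0.08 at most. The number of arrays and the brightness of dim members limit the precision.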
